A study of Rattus norvegicus with 2 samples.

Results

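The genes described here are the DNA repair genes of a rat embryonic stem cell line, taken by gene symbol from 1 deposited table of RPKM values. RPKM is reads per kilobase of gene model and per 1000000 reads, so levels can be compared between genes. The symbols taken were those of the Fanconi genes Fanca to Fancm with a single letter, Brca1 and Brca2, the numbered Rad50 to Rad59, Xrcc, Msh, Mlh, Pms, Parp and Ercc genes, Lig1, Lig3 and Lig4, Xpa and Xpc, together with Atm, Atr, Chek1, Chek2, Prkdc, Mre11a, Nbn, Ung and Ogg1. They gave 63 rows and, with rows of the same Entrez gene summed, 61 genes of the 23282 in the table. The rule reads symbols and no measured value. Both samples are wild-type, untreated cells of the line RRRC#464 DA-EC8/Rrrc of the Dark Agouti strain, at passage 30, labelled with a normal karyotype and grown in 2i medium, which holds inhibitors of MEK and GSK3. They form 1 group of 2 replicates of 1 cell line, so there is no contrast between conditions and no test, and every error below is the SD over these 2 samples.

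DNA is repaired by several routes that differ in the lesion they take. Base excision repair removes small damaged bases and joins single-strand breaks, nucleotide excision repair cuts out bulky lesions, and mismatch repair corrects errors left by replication. Breaks through both strands are joined directly by end joining or copied from a sister by homologous recombination, the Fanconi anaemia pathway unhooks cross-links between the strands, and the kinases ATM and ATR signal the damage to the cell cycle. Embryonic stem cells divide fast, with short gap phases, and are known to rely much on recombination.

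The stem cell markers Pou5f1, Sox2, Nanog, Utf1 and Esrrb all lay between 70.5 and 655 RPKM. Of 6 fibroblast or feeder cell markers 3 reached 1 RPKM, with Col1a2 and S100a4 listed at 0, and their levels summed to 5.92 RPKM in replicate 1 against 10.9 RPKM in replicate 2. None of 3 blood markers and 1 of 3 neuroectoderm markers (Nes) reached 1 RPKM. The step between low values gave 2991184 reads for replicate 1 and 3050685 for replicate 2 as the smallest depth that turned part of the values into whole reads. Whole multiples of these totals would do so too, with more reads behind each value. On the smallest totals, 10 RPKM in a 2 kb gene model stands for about 59.8 and 61.0 reads. At 1 RPKM such a model then holds about 6 reads, a counting error of 40.9% and 40.5%. In bulk RNA, fewer cells that express a gene and less RNA per cell cannot be told apart.

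Nearly all DNA repair genes were expressed, most of them at a level usual for an expressed gene. Averaged over the replicates, 57 of 61 genes (93.4%) were at 1 RPKM or more, where 46.4% of all genes in the table were. At 10 RPKM or more were 42 genes (68.9%), against 29.4% of all genes. The median over the 61 genes was 14.7 ± 0.337 RPKM, and the median over the 10814 genes of the table at 1 RPKM or more was 16.7 RPKM. Parp1 and Chek1 were among the genes that passed 100 RPKM. The 4 genes below 1 RPKM were Fancf, Ercc4, Parp3 and Msh4, of which Msh4 was listed at 0 in each library. The ribosomal protein genes Rps6 and Rpl7a, which every cell uses, are listed at 0 as well, so a low or zero value does not show that a gene was silent.

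**Figure D1:**
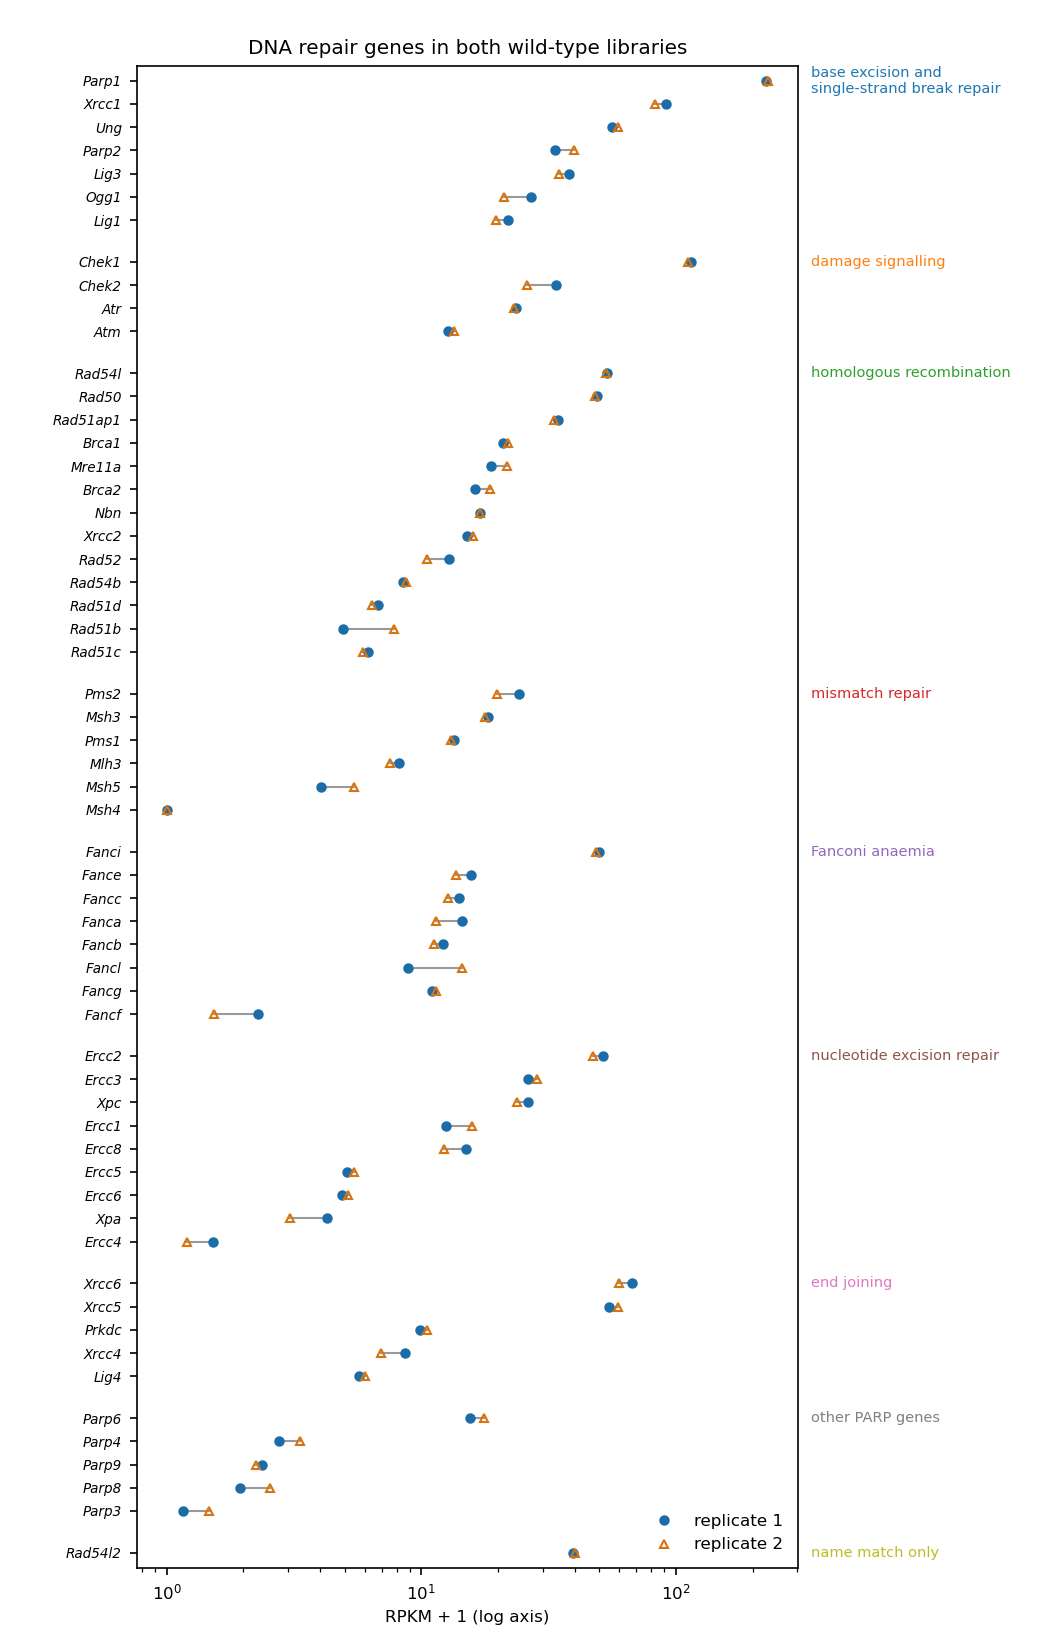
RPKM + 1 on a log axis (x) for 58 of the 61 DNA repair genes (y), grouped by pathway and ordered by mean within it. Filled circles are replicate 1, open triangles replicate 2 and grey lines join them. Parp1 and Chek1 stand above 100 RPKM, while Fancf, Ercc4, Parp3 and Msh4 stand below 1 RPKM.

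Each gene was counted in 1 pathway. The base excision and single-strand break repair genes had the highest median, 38.0 ± 1.33 RPKM over 7 genes, followed by the 4 damage signalling kinases at 25.6 ± 2.91 RPKM. The 14 recombination genes followed at 16.2 ± 0.848 RPKM and the 8 mismatch repair genes at 14.7 ± 0.306 RPKM. The 8 Fanconi anaemia genes were at 11.6 ± 0.754 RPKM, the 9 nucleotide excision repair genes at 11.4 ± 0.185 RPKM and the 5 end joining genes at 9.21 ± 0.422 RPKM. The 5 PARP genes not counted in single-strand break repair were lowest at 1.46 ± 0.115 RPKM. The remaining gene, Rad54l2, matched the rule by its symbol and was counted in none of these pathways. It was at 38.7 ± 0.562 RPKM, summed over rows at 2 positions on chromosome 8.

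On the scale of log2(RPKM + 1), the base excision median lay above the end joining median by 1.93 ± 0.01. It lay above the recombination median by 1.18 ± 0.02, each in both replicates. These SDs are of medians and can be smaller than those of the genes. The base excision median was Lig3 in replicate 1 and Parp2 in replicate 2, with SDs of 2.32 and 4.66 RPKM, against 1.33 RPKM for the median. That of nucleotide excision repair passed from Ercc1 (SD 2.30 RPKM) to Ercc8 (SD 1.88 RPKM), against 0.185 RPKM. The end joining median was Prkdc in both replicates. Recombination lay above end joining by 0.75 ± 0.01. This order rests on the median, because the end joining genes form a high pair and a low trio. With the mean over genes in its place, end joining lay 0.016 above recombination, 0.31 above mismatch repair and 0.84 above nucleotide excision repair, and Fanconi anaemia minus end joining was -0.59. Fanconi anaemia and nucleotide excision repair did not differ beyond the spread between replicates (0.018 ± 0.064). Recombination lay 0.15 ± 0.10 above mismatch repair, but its difference from it was -0.073 when genes under 0.1 RPKM were left out, so no order between these pathways is drawn.

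In base excision and single-strand break repair all 7 genes passed 10 RPKM. Parp1, the sensor that adds ADP-ribose chains at strand breaks (Entrez gene 25591, rn5 chromosome 13, 103859760 to 103891949), had 224 RPKM in replicate 1 against 229 RPKM in replicate 2. It was the highest of the 61 genes, above 97.5% of the genes of the table at 1 RPKM or more. Parp2, its smaller relative, was at 32.4 and 39.0 RPKM, so Parp1 was 6.92-fold higher in replicate 1 and 5.87-fold in replicate 2. Xrcc1, the scaffold of single-strand break repair, was at 90.2 and 82.0 RPKM. Its partner ligase gene Lig3 was at 37.1 and 33.8 RPKM, a ratio of 0.411 and 0.412 to Xrcc1. The replicates thus gave nearly the same proportion for this pair. Its log2 SD of 0.004 was the smallest of the 31 gene pairs compared, so this closeness is an extreme of many and shows no fixed proportion.

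Among the glycosylases, which take out the damaged base, Ung removes uracil and Ogg1 removes oxidised guanine. Ung was at 54.9 and 58.3 RPKM and Ogg1 at 25.9 and 20.1 RPKM, so Ung was higher in both libraries, by 1.27 ± 0.31 on the log2 scale. The 3 DNA ligase genes stood in the same order in both replicates. Lig1, which also seals Okazaki fragments during replication, was at 20.9 and 18.6 RPKM, below Lig3. Lig4, the end joining ligase, was at 4.71 and 5.03 RPKM, with Lig3 7.87-fold higher in replicate 1 and 6.72-fold higher in replicate 2.

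Mismatch repair genes differed widely in level. Its MutS proteins find the mismatch and its MutL proteins pass the signal on to excision. Msh3, the MutS subunit for larger loops, was at 17.3 and 16.8 RPKM. Msh6, the subunit for single mismatches, has no row of that name. RefSeq gives Entrez gene 100360342 the symbol Msh6, and the table lists that identifier as LOC100360342 (chromosome 6, 21616681 to 21634338). That row was at 278 and 286 RPKM, 16.1-fold and 17.0-fold above Msh3. It lies outside the symbol rule, was noticed after values were seen and is in none of the counts above.

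Of the MutL genes, Pms2 was at 23.3 and 18.9 RPKM, Pms1 at 12.5 and 12.1 RPKM and Mlh3 at 7.21 and 6.53 RPKM. These genes kept this order in both libraries. The meiotic MutS genes were lowest, with Msh5 at 3.02 and 4.45 RPKM and Msh4 listed at 0.

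Homologous recombination was detected throughout, with the means of all 14 genes above 5 RPKM. Rad54l, a translocase that helps strand exchange (Entrez gene 298429, chromosome 5, 138732242 to 138762035), was at 52.7 and 52.2 RPKM. It had the highest mean of the pathway, and its replicates lay within 1 RPKM of each other. The mediator genes, whose proteins help load the filament on the DNA, were lower, with Brca2 at 15.3 and 17.6 RPKM and Brca1 at 19.9 and 20.9 RPKM. Brca1 lay above Brca2 by 0.30 ± 0.09 on the log2 scale. Rad51ap1, which helps strand invasion, was at 32.8 ± 0.922 RPKM. Rad52, an annealing protein, was at 10.7 ± 1.66 RPKM.

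Most of the recombinase paralogs, which stabilise the filament, were at the low end of recombination. Rad51c was at 5.20 and 4.93 RPKM, Rad51d at 5.79 and 5.42 RPKM and Rad51b at 3.92 and 6.83 RPKM. Rad51c lay just below Rad51d in both, and the values of Rad51b lay on either side of them. Xrcc2 stood apart at 14.1 and 15.0 RPKM. Rad54b, the second translocase, was at 7.51 and 7.71 RPKM, below Rad54l by 2.63 ± 0.03 on the log2 scale. In the MRN complex, which senses and trims broken ends, Rad50 was at 47.9 and 47.2 RPKM, Mre11a at 17.9 and 20.7 RPKM and Nbn at 15.94 and 16.01 RPKM. Rad50 thus lay 2.68-fold and 2.28-fold above Mre11a. Nbn lay below Mre11a in both libraries.

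End joining was uneven. The Ku genes, whose proteins form the ring that grips a broken end, were high: Xrcc6 (Ku70) was at 66.3 and 58.6 RPKM and Xrcc5 (Ku80) at 53.4 and 58.4 RPKM. Xrcc6 was higher in each library, by very little in replicate 2. Of the 31 gene pairs compared this was the single pair whose difference (-0.16 ± 0.21, Xrcc5 minus Xrcc6) did not exceed the spread between replicates. A spread over 2 samples is itself uncertain, so a difference beyond it is no test result. On the smallest totals, counting alone gives errors of 12.9% and 12.8% at 10 RPKM in a 2 kb model. Prkdc, the kinase that Ku recruits, was at 8.91 and 9.51 RPKM, 2.48 ± 0.03 below Xrcc5 on the log2 scale. Xrcc4 was at 7.67 and 5.92 RPKM and its ligase partner Lig4 lower in both libraries. The 3 genes that act after Ku were therefore all under 10 RPKM.

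**Figure D2:**
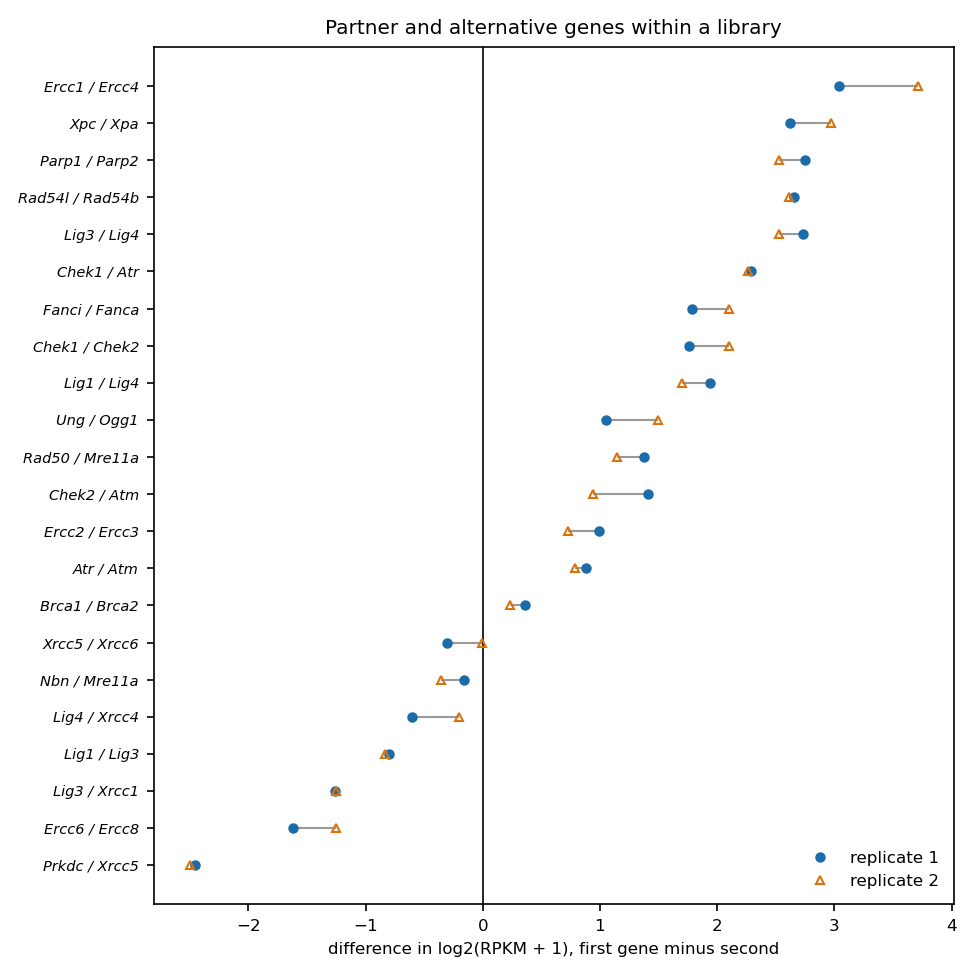
Difference in log2(RPKM + 1) between the genes of 22 of the pairs (x, first gene minus second), pair by pair (y), with replicate 1 as filled circles and replicate 2 as open triangles. Prkdc against Xrcc5 lies farthest to the left and Ercc1 against Ercc4 farthest to the right, and the Ku pair Xrcc5 and Xrcc6 reaches the line at 0 in replicate 2.

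In damage signalling the effector kinase genes stood above the apical ones. Chek1, the target of ATR that slows the cycle when replication stalls (Entrez gene 140583, chromosome 8, 39184020 to 39204446), was at 114 and 110.2 RPKM. Chek2, the target of ATM, was at 32.9 and 24.9 RPKM, 3.47-fold and 4.42-fold lower. The apical kinase gene Atr was at 22.5 and 22.2 RPKM and Atm at 11.7 and 12.5 RPKM. Thus both genes of the ATR and CHK1 arm exceeded their counterparts of the ATM and CHK2 arm in each library, Atr by 0.84 ± 0.07 and Chek1 by 1.93 ± 0.24 on the log2 scale.

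Nucleotide excision repair ranged from Ercc2 down to Ercc4, which lay near the limit of detection. The helicase genes of the transcription factor TFIIH, Ercc2 at 51.0 and 46.4 RPKM and Ercc3 at 25.2 and 27.6 RPKM, had the highest means. Xpc, which recognises the lesion, was at 25.3 and 22.8 RPKM, against 3.26 and 2.04 RPKM for Xpa, which verifies it. Of the factors of transcription-coupled repair, Ercc8 (13.9 and 11.3 RPKM) exceeded Ercc6 (3.87 and 4.17 RPKM) in both libraries. Of the nuclease genes, Ercc5 was at 4.10 and 4.46 RPKM and Ercc1 at 11.5 and 14.8 RPKM. Ercc4, whose protein works only as a dimer with that of Ercc1, was at 0.526 and 0.206 RPKM. On the smallest totals, 3 reads in a 2 kb model would give 0.501 RPKM in replicate 1 and 0.492 RPKM in replicate 2, so the Ercc1 to Ercc4 ratios of 21.9 and 71.6 are imprecise.

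Most core complex genes of the Fanconi anaemia pathway had like means, with single genes far above and below. Fanca, Fancb, Fancc, Fance, Fancg and Fancl, of the core complex that attaches ubiquitin to a protein clamp, had means from 10.2 to 13.7 RPKM. Fanci, a subunit of the clamp that the core complex modifies, stood above them at 49.1 and 47.8 RPKM, 3.64-fold and 4.60-fold over Fanca. Fancf, another core subunit, was far below at 1.28 and 0.539 RPKM. Its locus of 1826 bp taken as its gene model gives 7 reads in replicate 1 and 3 in replicate 2 on the smallest totals. Its value in replicate 2 was 0.420 of that in replicate 1. Fancm and Xrcc3 had no row by symbol or by RefSeq identifier and were not analysed here.

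The PARP genes of the set other than Parp1 and Parp2 were mostly low. Only PARP symbols with a single digit are in the set, so the rest of the family was not examined. Parp6 was at 14.5 and 16.7 RPKM, while Parp4 (1.77 and 2.33 RPKM), Parp9 (1.38 and 1.25 RPKM), Parp8 (0.951 and 1.54 RPKM) and Parp3 (0.159 and 0.468 RPKM) were all under 3 RPKM. Parp1 exceeded every one of these in both libraries.

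Of all genes in the table, 46.4% were at 1 RPKM or more and 29.4% at 10 RPKM or more on the mean. In a list of 93 other genes of the same pathways, 91 and 70 (75.3%) reached these levels. Fancd2, the partner of Fanci in the clamp, has a symbol of another form and is one of them. It was at 71.1 and 73.7 RPKM, and Usp1, which removes the ubiquitin from the clamp, at 129 and 131 RPKM. These were the highest 2 of the 10 other Fanconi genes, so the clamp genes Fanci and Fancd2 and the enzyme that resets them all lay above the core complex genes. The lowest were Fan1 (3.63 ± 0.602 RPKM) and Faap24 (1.83 ± 0.999 RPKM).

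The other nucleotide excision repair genes had a median of 51.1 ± 0.541 RPKM over 15 genes, above the 11.4 RPKM of the genes of the set. Subunits of TFIIH, which also serve transcription, are among these 15 genes, and the TFIIH helicase genes Ercc2 and Ercc3 are in the set. Ddb1 (549 and 576 RPKM) and Rad23b (318 and 328 RPKM) were highest. Ddb2 (12.2 and 10.1 RPKM) and Uvssa (0.254 and 0 RPKM) were lowest. In mismatch repair all 8 further genes, which also serve replication, passed 10 RPKM, from Pcna at 441 and 413 RPKM and Pold1 at 113 and 112 RPKM down to Rfc2 at 63.9 ± 5.24 RPKM and Rfc3 at 42.4 ± 2.71 RPKM. End joining stayed low outside the set as well: of 6 other genes, only the polymerase gene Poll passed 10 RPKM, at 36.3 and 34.4 RPKM, and Tp53bp1 followed at 9.62 ± 0.0497 RPKM. Nhej1 was at 2.84 and 0.928 RPKM and Polq at 0.902 and 0.654 RPKM.

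Of 14 other recombination genes 12 passed 10 RPKM. The single-strand binding genes Rpa2 (83.7 and 77.7 RPKM) and Rpa1 (75.4 and 84.1 RPKM) led them, and the resolvase gene Gen1 (6.87 and 4.82 RPKM) and the helicase gene Wrn (6.02 and 4.22 RPKM) were lowest. The 17 other base excision genes had a median of 15.9 ± 0.0297 RPKM, below the 38.0 RPKM of the genes of the set and below the medians of the other mismatch repair (73.6 RPKM), nucleotide excision (51.1 RPKM) and signalling genes (26.7 RPKM). With these lists, the place of base excision repair at the top of the pathway medians therefore holds for the genes of the set only. Genes that also serve replication or transcription were each listed in 1 pathway, so the order of the other medians depends on that assignment. Of the 17 genes 12 passed 10 RPKM, led by the glycosylase gene Tdg (116 and 121 RPKM) and the endonuclease gene Apex1 (97.7 and 100.8 RPKM), with Mpg (5.86 and 7.34 RPKM) and Neil3 (1.35 and 1.49 RPKM) lowest. Of 13 other signalling genes 10 passed 10 RPKM, from H2afx (142 and 145 RPKM) and Timeless (80.4 and 85.0 RPKM) to Tipin (6.84 and 8.30 RPKM) and Atrip (5.12 and 3.60 RPKM). Among 10 genes of translesion synthesis and direct reversal, Mgmt (84.7 and 74.3 RPKM) and Alkbh2 (37.8 and 40.1 RPKM) were highest, and the bypass polymerase genes Poli (3.82 and 4.03 RPKM) and Polk (2.03 and 1.64 RPKM) were lowest.

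**Figure D3:**
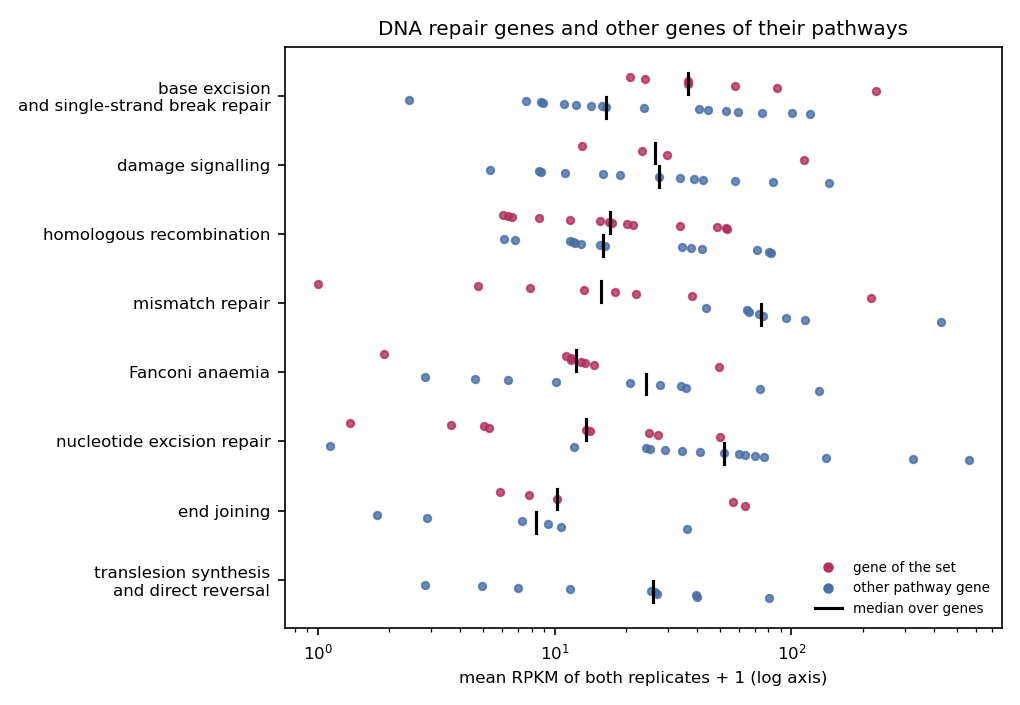
Mean RPKM + 1 of both replicates on a log axis (x) by pathway (y), for the DNA repair genes of the set (red) and the other listed genes of each pathway (blue), with 1 point per gene and a black bar at the median of the gene means. In mismatch repair and nucleotide excision repair the blue points lie mostly to the right of the red ones, and in end joining only Xrcc5, Xrcc6 and Poll stand above 10 RPKM.

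A property that the symbols did not use is position. Of the 61 genes, 16 (26.2%) began within 1000 bp of the start of a gene on the other strand. The same held for 6.83% of all genes in the table and for 11.9% of genes at 1 RPKM or more. Within 300 bp it held for 8 of the 61 genes (13.1%), for 3.88% of all genes and for 6.82% of those at 1 RPKM or more. All 16 pairs faced away from each other, a property that was not counted for the other genes. By the RefSeq starts of GRCr8, which cover 48 of the 61 genes (78.7%) and so are too few for a statement on the set, it held for 15 of the 48 (31.2%), for 13.8% of all genes and for 20.5% of those at 1 RPKM or more. They were 3 of 5 end joining genes (Xrcc4, Xrcc6 and Prkdc), 4 of 8 mismatch repair genes (Pms1, Pms2 and Msh3 among them), 4 of 14 recombination genes (Rad51ap1, Rad51c, Brca1 and Mre11a), Atm and Chek2, Xpc and Ercc8, and Parp3. No base excision or Fanconi anaemia gene was among them in rn5, though in the RefSeq table Lig1 has Zswim9 as such a neighbour. For all 11 pairs with both genes in the RefSeq promoter table of the GRCr8 build, the starts also lay within 1000 bp of each other there.

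The stretches between the starts are shown for 4 pairs, because each is upstream sequence that both genes of a pair have in common. They were read from RefSeq (GRCr8) on the strand of the repair gene, from the base after the neighbour's start to the base before its own (for Pms2, which has 2 annotated starts, from the nearer).
Xpc with Lsm3, chr4:125578085-125578184, minus strand: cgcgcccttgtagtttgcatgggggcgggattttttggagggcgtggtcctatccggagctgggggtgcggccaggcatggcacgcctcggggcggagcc
Ercc8 with Ndufaf2, chr2:41380764-41380900, plus strand: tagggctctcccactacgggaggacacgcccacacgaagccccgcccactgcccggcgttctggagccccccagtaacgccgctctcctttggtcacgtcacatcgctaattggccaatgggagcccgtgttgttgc
Xrcc4 with Tmem167a, chr2:22932814-22933026, minus strand: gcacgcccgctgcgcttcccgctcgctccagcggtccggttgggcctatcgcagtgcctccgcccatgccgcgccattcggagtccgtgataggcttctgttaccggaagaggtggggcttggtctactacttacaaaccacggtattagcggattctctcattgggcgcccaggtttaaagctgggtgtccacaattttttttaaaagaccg
Pms2 with Aimp2, chr12:15814729-15814941, minus strand: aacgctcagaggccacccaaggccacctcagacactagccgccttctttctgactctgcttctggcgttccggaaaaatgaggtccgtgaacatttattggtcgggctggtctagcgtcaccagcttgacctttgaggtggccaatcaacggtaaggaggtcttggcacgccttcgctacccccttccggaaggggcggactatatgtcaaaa

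These stretches are 100, 137, 213 and 213 bases long, with 9, 11, 18 and 12 CpG sites and a GC content of 69.0%, 64.2%, 57.7% and 55.4%.

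Of the 16 neighbours 15 were at 1 RPKM or more on the mean, and 10 exceeded the repair gene in both libraries. Of all 1590 genes of the table that start within 1000 bp of a gene on the other strand, 1286 were at 1 RPKM or more. How often such a neighbour is the higher gene was not counted over the other pairs of the table. Lsm3, an RNA-processing gene, was at 142 ± 18.5 RPKM, 6.11-fold and 5.63-fold above Xpc. Mcm4, a subunit of the replicative helicase, lay 4.63-fold and 4.60-fold above Prkdc, and Npat, a regulator of histone genes, 2.85-fold and 2.76-fold above Atm. These 3 neighbours thus all stood well above the repair gene beside them. Whether the counting used strand is not given in the sources used here, so reads of overlapping genes on opposite strands cannot be told apart.

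Tmem167a, listed as LOC100359823, lay 4.08-fold and 4.68-fold above Xrcc4, and Aimp2 2.36-fold and 3.05-fold above Pms2. Of the 16 repair genes 4 exceeded their neighbour in both libraries, Pms1, Rad51ap1 and Ercc8 among them. Rad51ap1 was 4.97-fold above Ferry3, listed as RGD1311164, on the means. Pms1 was at 12.3 ± 0.250 RPKM, while Ormdl1, listed as LOC100188936, was listed at 0 RPKM in replicate 1 and was at 0.567 RPKM in the other. In 7 of the 16 pairs the means of the genes were within 2-fold, such as Xrcc6 with Desi1 (62.4 and 57.6 RPKM) and Brca1 with Nbr1 (20.4 and 27.8 RPKM). Among these 16 pairs, levels were thus alike in some and over 4-fold apart in others. The share within 2-fold was not counted over the other pairs of the table.

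**Figure D4:**
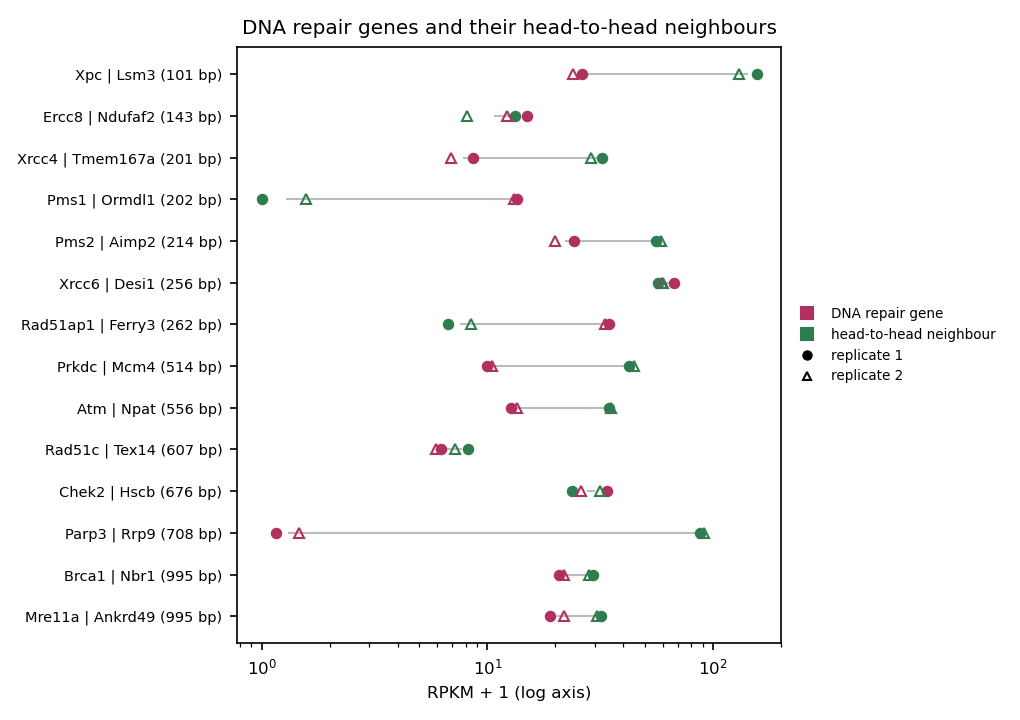
RPKM + 1 on a log axis (x) of 14 of the 16 DNA repair genes (red) and of the gene that starts within 1000 bp on the other strand (green), with the distance between the starts in rn5 beside each pair (y). Circles are replicate 1 and triangles replicate 2. Parp3 and Rrp9 lie farthest apart, and the values of Xrcc6 and Desi1 nearly coincide.

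Among themselves the genes were scattered over the genome. Within 100 kb of each other lay Ercc1 and Ercc2 on chromosome 1, 25.4 kb apart, and Lig3 and Rad51d on chromosome 10, 71.7 kb apart. Ercc2 was 3.70-fold above Ercc1, and Lig3 6.33-fold above Rad51d, on the means.

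RefSeq promoters (GRCr8, 250 bases before to 50 after the start) matched 48 of the 61 genes by Entrez identifier. As this is 78.7%, a count of motifs over the set is void and no share is drawn from it. The E2F motif, bound by the factors that switch on S phase genes, was searched as TTTCCCGC, TTTCGCGC, TTTGCCGC and TTTGGCGC on both strands, and 2.37% of the 27457 genes with a promoter held it. The forms TTTCGCGC and TTTGGCGC end with the letters that begin the NRF1 motif described next, so matches can overlap. None of the 48 matched genes held both motifs, and the remaining genes were not searched. Before the start it was found in Chek1, Fancc, Rad51d, Ung and Atm, whose windows are shown with the motif in capitals, and after the start in Fancl and Lig1.
Chek1, chr8:44629844-44629891, minus strand: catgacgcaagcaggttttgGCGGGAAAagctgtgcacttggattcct
Fancc, chr17:1687040-1687087, plus strand: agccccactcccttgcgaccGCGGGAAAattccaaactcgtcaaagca
Rad51d, chr10:68321903-68321936, minus strand: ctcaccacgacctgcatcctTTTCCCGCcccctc
Ung, chr12:48154046-48154085, minus strand: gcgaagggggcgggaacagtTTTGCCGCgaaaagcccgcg
Atm, chr8:62828841-62828879, minus strand: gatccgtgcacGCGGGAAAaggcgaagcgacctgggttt

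The genes with this match included both a high gene, Chek1 at 112 ± 2.76 RPKM, and a low one, Rad51d at 5.60 ± 0.262 RPKM. The motif of NRF1, a factor of genes for basic cell functions, was searched as GCGCNTGCGC on both strands and was held by 4.82% of genes with a promoter. It was found in Lig3, Lig4, Xrcc1, Ercc2, Mlh3, Msh3, Parp6 and Rad51ap1. A match is a run of letters and not a measured binding site.

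The replicates resembled each other for nearly all of these genes, with shares past the limits near those over all genes. Of the 57 genes at 1 RPKM or more none differed over 2-fold between replicates in RPKM + 1, where 0.721% of all 10814 genes at that level did. Over 1.5-fold in RPKM + 1 differed 2 of the 57, Fancl and Rad51b, against 4.26% of all genes. The ratios given here for single genes are of RPKM without the added 1. By that measure Parp8, 1.62-fold higher in replicate 2, and Xpa were past 1.5-fold as well. Fancl, the ubiquitin ligase subunit of the core complex (chromosome 14, 110369260 to 110433487), had 7.89 RPKM in replicate 1 against 13.5 RPKM in replicate 2, 1.71-fold higher. Rad51b was 1.74-fold higher in replicate 2. In the other direction Xpa, Chek2, Fanca, Xrcc4 and Ogg1 were lower in replicate 2, to 0.627, 0.758, 0.770, 0.773 and 0.773 of their level in replicate 1. In all, 27 of the 57 were higher in replicate 2 and 30 in replicate 1, and their median log2 ratio was -0.017, as over all genes at that level. Without its sign, the median log2 ratio at 10 to 30 RPKM was larger for the repair genes, 0.162 against 0.115 over all genes. It was smaller at 1 to 10 RPKM (0.098 against 0.220) and at 30 RPKM or more (0.056 against 0.074). With 1 library on each side these differences have no test.

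**Figure D5:**
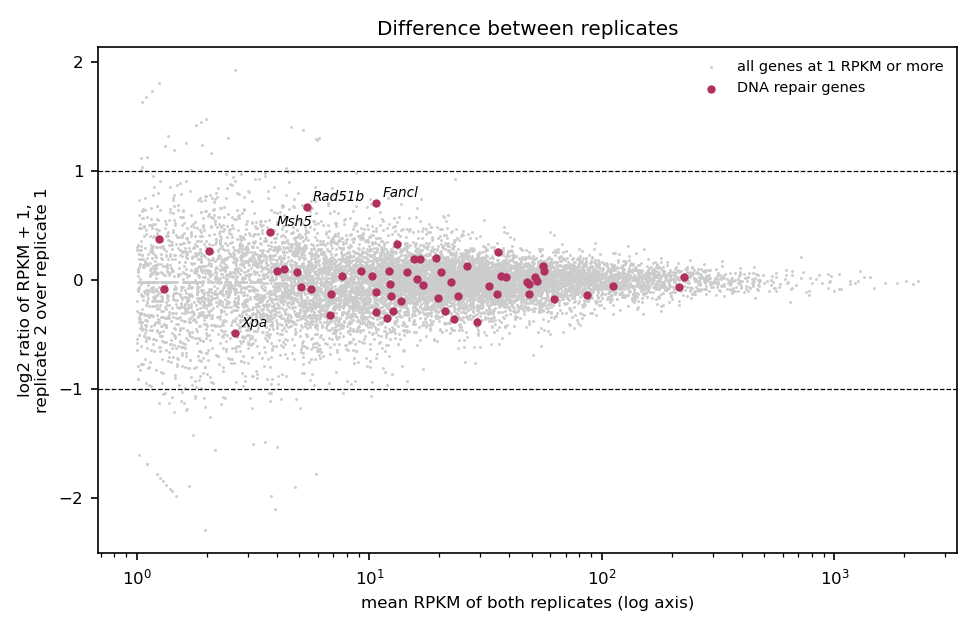
Log2 ratio of RPKM + 1 of replicate 2 over replicate 1 (y) against mean RPKM on a log axis (x) for all 10814 genes at 1 RPKM or more (grey) and the 57 DNA repair genes among them (red). Dashed lines mark a 2-fold difference, and the red points all lie between them, with Fancl and Rad51b highest.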

How the data were processed

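RNA-seq libraries of 2 replicates of 1 wild-type cell line were analysed. The authors deposited RPKM values, 1 column per library, on the rn5 build. The submitters' processing notes list CASAVA 1.8 and TopHat 1.4.0. The counting tool, gene model lengths, strand and the handling of reads with several matches are not stated in the labels. Columns were matched to samples by title, and rows of 1 Entrez gene were summed. Since RPKM values are no counts, count models were left aside, and 1 group of 2 samples allows no test. A difference is set against the SD over replicates on the log2(RPKM + 1) scale, which understates changes of low genes. Pathway medians were taken within each replicate. Other pathway genes were matched by RefSeq identifier (GRCr8 gene table, coordinates not used), then by symbol. Read totals are those that made the most rows with a locus under 6000 bp whole, within a relative tolerance of 3e-07 (527 of 2700 and 525 of 2688 rows). The members, lists and pairs were chosen with earlier results of these data known. All members may be named, with the 2 highest and 2 lowest other genes of each pathway. Alternatives changed the detection minimum, pseudocount, scaling, row handling, replicates, gene lists and start distance. The scripts were tested on simulated data. Tools were Python 3.11.15, numpy 2.4.6, pandas 2.3.3 and matplotlib 3.10.9. Some genes of the set count in totals and medians but are not reported here by name.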

Additional observations from a re-analysis of the deposited data

How the results depend on the processing

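With the minimum moved from 1 RPKM to 3 RPKM 53 genes passed it, and with 0.3 RPKM 60 did, while at 1 RPKM the other alternatives gave 57 or 58. The number at 10 RPKM or more ranged from 41 to 50, the highest after each library was rescaled to a sum of 1000000. The deposited columns sum to 439453 and 435090 RPKM, so rescaling raises every value. The cutoffs of 1 and 10 are then less strict than in RPKM, and these counts are not at the same threshold. All 31 gene pairs kept their sign under a pseudocount of 0.1, the highest row per gene and each replicate alone. Of 252 values for 28 pathway differences 9 changed sign. With means over genes end joining stood at 0.016 above homologous recombination, 0.31 above mismatch repair and 0.84 above nucleotide excision repair, and Fanconi anaemia at -0.59 against end joining. Recombination against mismatch repair was -0.073 without genes under 0.1 RPKM, -0.073 with Msh6 counted in (chosen after seeing the data) and -0.23 without genes of several pathways or meiosis. Base excision over end joining was 2.00 after rescaling, 1.5 with means, 2.03 with a pseudocount of 0.1 and 2.22 without genes of several pathways. End joining against recombination was -0.79, -0.81 and -0.73 under rescaling, that pseudocount and that gene list. Mismatch over nucleotide excision repair was 0.33 after rescaling, 0.34 with that pseudocount, 0.53 with means, 0.54 without genes under 0.1 RPKM, 0.54 with Msh6 and 0.56 without genes of several pathways. With a pseudocount of 0.1, 4 genes were over 1.5-fold apart between replicates, and 1 at a minimum of 10 RPKM. Within 300 bp 8 genes had a head-to-head neighbour. No paired analysis was possible because there is 1 group. Depth limits values under about 1 RPKM.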

Other observations

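The deposited table annotates 134 genes to the Gene Ontology term for DNA repair, of which 27 are among the 61 genes described and 35 among the other pathway genes listed. On the mean, 129 of the 134 (96.3%) were at 1 RPKM or more and 102 (76.1%) at 10 RPKM or more. Over all genes in the table these shares were 46.4% and 29.4%. The median of the 134 was 25.8 ± 1.25 RPKM (SD, n = 2). Of the 72 that are on neither list, the highest were the co-repressor gene Trim28 at 937 ± 25.6 RPKM, the ubiquitin-conjugating enzyme gene Ube2d3 at 468 ± 11.5 RPKM, Morf4l2 at 431 ± 13.0 RPKM and Uhrf1, which maintains DNA methylation, at 387 ± 7.56 RPKM. The row that RefSeq names Msh6 came next among them. Dmc1, the recombinase of meiosis, had 0.129 RPKM in replicate 1 against 0.506 RPKM in replicate 2. These genes were named after their values were seen.

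The table also has a row with the symbol Apex2 that was listed at 0 in both replicates. RefSeq gives that name to another Entrez identifier, listed as RGD1565983, which was at 10.4 and 9.41 RPKM.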
